A study of Mus musculus with 10 samples.

Results

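The genes described here make and load the peptides that class I molecules of the major histocompatibility complex (MHC) present at the cell surface. They are the immunoproteasome subunits Psmb8, Psmb9 and Psmb10, the PA28 subunits Psme1 and Psme2, the transporter subunits Tap1 and Tap2, the tapasins Tapbp and Tapbpl, and the aminopeptidase Erap1. The 10 genes were chosen by name for their function, with earlier results of these data known, so that counts of them called are not independent evidence. All 10 were found among the 24391 gene names in the count tables. RNA sequencing of bilateral whole hippocampus was available for 10 male mice aged 10 to 14 weeks, of a strain that the study prints as C56BL/6J, with 1 library per mouse. SAH mice (n = 4) had the arterial ring under the brain (circle of Willis) punctured on 1 side by an intravascular filament, which causes a subarachnoid hemorrhage, and tissue was taken on day 4. The SAH mice were those in which cerebral blood flow fell past a minimum set by the study. Sham mice (n = 3) had the same surgery without the puncture, and Naive mice (n = 3) had none. Sham and Naive mice together are called control (n = 6). The surgery was done under isoflurane anesthesia.

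Proteasomes cut cytosolic proteins into peptides, and the catalytic core holds 3 kinds of active subunit. Under interferons, and constitutively in many immune cells, the ordinary active subunits encoded by Psmb5, Psmb6 and Psmb7 are replaced in new particles by those encoded by Psmb8, Psmb9 and Psmb10. The PA28 ring opens the core, the TAP transporter (a dimer of Tap1 and Tap2) carries peptides into the endoplasmic reticulum, tapasin holds class I molecules at TAP until they are loaded, and Erap1 trims peptides to length. In the healthy brain class I presentation is low, and microglia, endothelial cells and border macrophages carry more of it than neurons do.

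A group of 4 of these genes stands side by side, and start regions are shown first because the values below are read against them. Psmb9 (mm9, chromosome 17, 34319044 to 34324275, minus strand) and Tap1 (34324501 to 34334170, plus strand) are transcribed away from each other, with 225 bases between them. Psmb8 (34335140 to 34338399, plus strand) and Tap2 (34341424 to 34353266, plus strand) follow downstream of Tap1. No other gene of the count tables lies within the 34.2 kb from the end of Psmb9 to the end of Tap2. Tapbp is also on chromosome 17 (34056423 to 34066235, plus strand), and the remaining genes are elsewhere. They are Psme1 (chromosome 14, 56197331 to 56200364, plus strand), Psme2 (chromosome 14, 56206277 to 56209938, minus strand), Psmb10 (chromosome 8, 108459628 to 108462292, minus strand), Erap1 (chromosome 13, 74777320 to 74829323, plus strand) and Tapbpl (chromosome 6, 125174230 to 125181878, minus strand).

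The stretch between Psmb9 and Tap1 is printed whole because it is the upstream region of both genes. The upstream regions of Psmb8 and Tapbp, and the bases around the start sites of Psme1 and Erap1, are printed for the motifs they hold. All are written 5′ to 3′ on the plus strand of mm9, and capitals mark motif matches, on either strand. In order they are chr17:34324276-34324500, chr17:34334890-34335139, chr17:34056173-34056422, chr14:56197261-56197350 and chr13:74777231-74777320.
Psmb9-Tap1: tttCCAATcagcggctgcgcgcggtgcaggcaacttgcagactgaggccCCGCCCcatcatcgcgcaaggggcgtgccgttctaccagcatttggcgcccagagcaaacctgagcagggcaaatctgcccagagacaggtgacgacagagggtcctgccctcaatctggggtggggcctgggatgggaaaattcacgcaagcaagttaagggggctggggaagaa
Psmb8: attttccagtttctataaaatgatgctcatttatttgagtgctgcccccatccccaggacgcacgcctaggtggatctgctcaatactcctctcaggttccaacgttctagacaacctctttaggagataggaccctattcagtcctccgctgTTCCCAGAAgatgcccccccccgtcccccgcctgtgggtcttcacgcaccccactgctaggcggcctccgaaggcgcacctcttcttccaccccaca
Tapbp: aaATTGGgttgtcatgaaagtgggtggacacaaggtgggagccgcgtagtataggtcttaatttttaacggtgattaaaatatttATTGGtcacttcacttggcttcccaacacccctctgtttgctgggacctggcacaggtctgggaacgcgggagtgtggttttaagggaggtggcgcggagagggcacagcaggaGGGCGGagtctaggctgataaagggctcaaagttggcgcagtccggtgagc
Psme1: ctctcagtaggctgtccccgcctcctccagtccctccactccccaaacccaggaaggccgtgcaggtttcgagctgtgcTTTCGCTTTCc
Erap1: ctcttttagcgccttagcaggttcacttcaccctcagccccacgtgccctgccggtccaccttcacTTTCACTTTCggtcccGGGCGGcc
The motifs searched, on both strands, were the core of the interferon-stimulated response element (ISRE: GAAA, any 2 bases, GAAA), the interferon-gamma activated site (GAS: TTC, any 3 bases, GAA), kappa B (GGGA, any 2 bases, TTCC), the Y box (CCAAT) and the GC box (GGGCGG). The search covered 250 bases before and 50 after the start sites given by RefSeq (GRCm38.p6 table), and 8 of the 10 genes had an entry (not Tap2 and Tapbpl). Each of their sequences, 2 of them for the start sites of Psme2, matched mm9 exactly and once. The ISRE core was found in Psme1 and Erap1, and in 3.44% of all 32851 promoters of the table. The GAS motif was found in Psmb8, from 97 to 89 bases before the start site, and in 8.30% of all promoters. The kappa B motif was found in 0 of the 8, and in 1.47% of all promoters. The Y box was found in Tapbp, Psmb9 and Tap1 (37.4% of all promoters), where Psmb9 and Tap1 share the same match because their promoters share 275 bases. The GC box was found in 6 of the 8 (35.7% of all promoters), all but Psmb8 and Psmb10, and Psmb9 and Tap1 again share the same match. Matches of different motifs did not overlap each other. These are matches of letters and were not tested as binding sites.

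Levels were measured as counts of read pairs per gene, which summed to between 19743388 and 27254655 per mouse. They are given as CPM (counts per equal depth, using TMM-normalized library sizes) and, between genes, as CPM per kb of exon. In control mice the 10 genes spanned a wide range per length. Psme1 was highest at 29.8 ± 1.18 CPM per kb (SD, n = 6), followed by Psmb10 (16.2 ± 1.31 CPM per kb) and Psme2 (14.9 ± 0.766 CPM per kb), and these last did not lie further apart than the sum of their SDs. Tapbp stood at 7.70 ± 0.516 CPM per kb. Tapbpl (2.89 ± 0.171 CPM per kb), Erap1 (2.86 ± 0.265 CPM per kb) and Tap2 (2.73 ± 0.323 CPM per kb) were not separated from each other by their SDs. Psmb8 (1.57 ± 0.313 CPM per kb) came next, and Tap1 (0.941 ± 0.145 CPM per kb) and Psmb9 (0.827 ± 0.192 CPM per kb) were lowest and not separated. The constitutive partners were far higher, with 51.6 ± 2.06 CPM per kb for Psmb5, 80.9 ± 2.41 for Psmb6 and 104.9 ± 5.36 for Psmb7.

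In SAH, 5 of the 10 genes were overexpressed against control. These were the immunoproteasome subunits Psmb8 and Psmb9, both TAP subunits and tapasin (edgeR's quasi-likelihood test, Benjamini-Hochberg adjusted p under 0.10, the threshold for a call). Over all 14993 genes tested, 3.13% were called higher, and 0 of the 10 were called lower, beside 1.54% of all genes. DESeq2 also called 5 of the 10 higher, beside 3.94% of the genes it tested. At an adjusted p under 0.05, edgeR called 3 of the 10 higher (1.85% of genes tested), and at an unadjusted p under 0.05 it found 7 (9.13%). Psmb10, both PA28 subunits, Tapbpl and Erap1 did not pass the test. The log2 fold change was above 0 for all 10 genes (49.1% of all genes tested), with a median of 0.26 for the 10 genes and of -0.0024 for all genes tested. Every SAH mouse was above every control mouse in CPM for 5 genes, namely Psmb8, Psmb9, Psmb10, Psme1 and Tapbp, as was so for 2.83% of all genes tested. In bulk tissue, more cells of a type and more RNA per cell cannot be told apart.

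**Figure D1:**
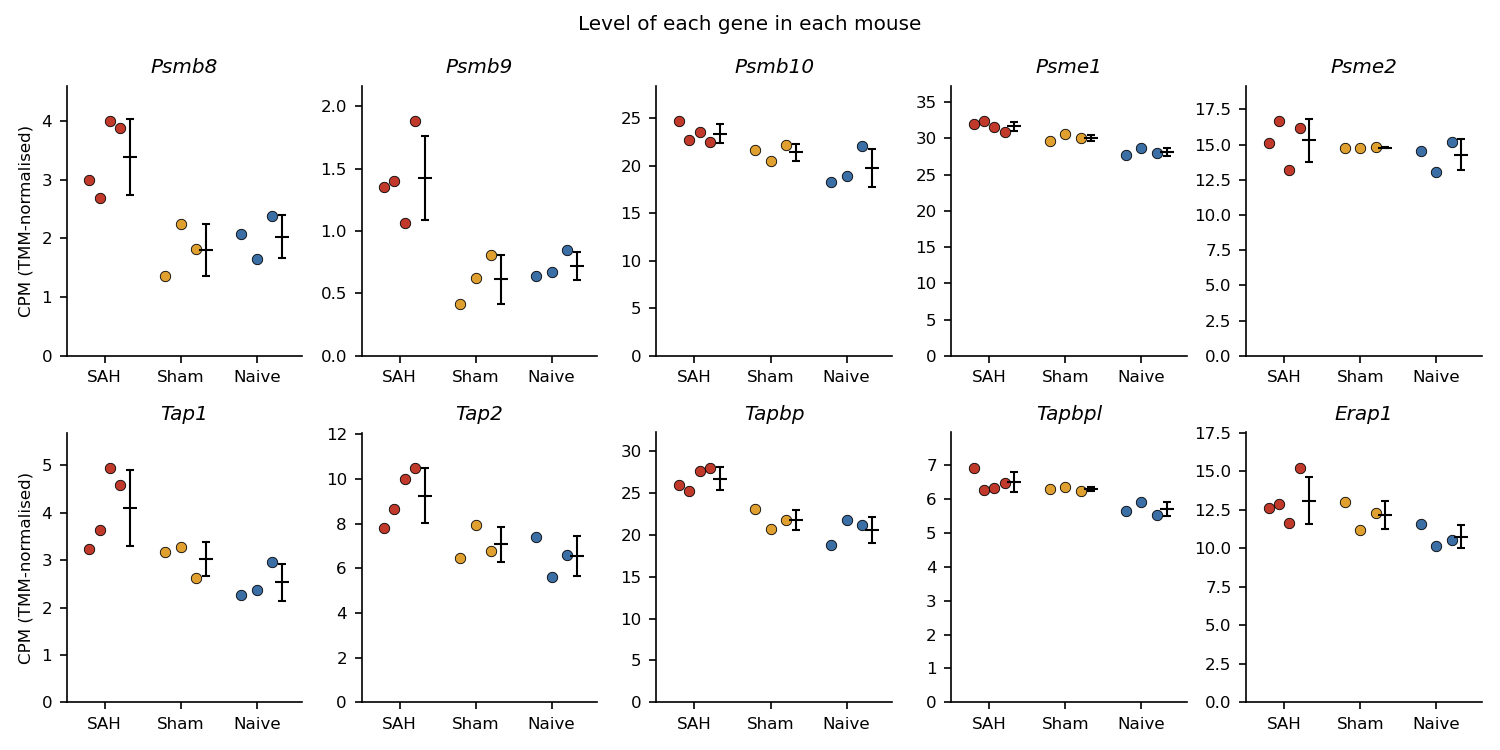
Level of each of the 10 genes in each mouse, in CPM from 0 on a scale of its own, with 1 point per mouse in SAH (n = 4), Sham (n = 3) and Naive (n = 3) and the mean ± SD beside the points. The SAH points of Psmb8, Psmb9, Psmb10, Psme1 and Tapbp all sit above the 6 control points, while those of Psme2, Tap1, Tap2, Tapbpl and Erap1 overlap them.

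Psmb9, the immunoproteasome subunit that takes the place of Psmb6, changed most. It measured 1.35, 1.40, 1.06 and 1.88 CPM in SAH mice 1 to 4, against 0.413, 0.625 and 0.805 CPM in Sham mice 5 to 7 and 0.639, 0.668 and 0.849 CPM in Naive mice 8 to 10. All SAH mice were higher, with SAH mouse 4 highest and Sham mouse 5 lowest, and the groups did not overlap. The log2 fold change was 1.10 (SE 0.22, adjusted p = 0.0181 from edgeR), a 2.15-fold increase. The counts behind it are low, 21 to 47 read pairs per SAH mouse and 10 to 20 per control mouse. Omitting any 1 mouse gave values from 0.94 to 1.21, past the threshold in all 10 fits.

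Psmb8, the counterpart of Psmb5 with chymotrypsin-like activity, measured 3.00, 2.68, 3.99 and 3.88 CPM in SAH mice 1 to 4. Sham mice had 1.36, 2.24 and 1.81 CPM, and Naive mice 2.07, 1.65 and 2.38 CPM. The groups did not overlap, and SAH mice 3 and 4 were above SAH mice 1 and 2. Its log2 fold change was 0.81 (SE 0.17, adjusted p = 0.0256 from edgeR), a 1.75-fold increase, on 62 to 97 read pairs per SAH mouse and 32 to 61 per control mouse. Without SAH mouse 4 it was 0.73 and missed the threshold (edgeR adjusted p = 0.107). With the 3 mice richest in choroid plexus RNA (SAH mice 3 and 4 and Sham mouse 7) left out it was 0.54 and missed it as well (edgeR adjusted p = 0.358).

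Psmb10, the counterpart of Psmb7, was the most abundant of the 3 inducible subunits and moved least. SAH mice had 24.7, 22.7, 23.5 and 22.5 CPM, Sham mice 21.6, 20.4 and 22.1 CPM, and Naive mice 18.3, 18.9 and 22.1 CPM. The lowest SAH mouse lay just above the highest control mice, Sham mouse 7 and Naive mouse 10. Its log2 fold change of 0.18 (SE 0.066) did not pass the test (edgeR adjusted p = 0.185).

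Tap1 and Tap2, the TAP subunits, shared their pattern among the SAH mice. Tap1 measured 3.24, 3.64, 4.95 and 4.60 CPM in SAH mice 1 to 4, 3.18, 3.27 and 2.61 CPM in Sham mice, and 2.26, 2.37 and 2.97 CPM in Naive mice. Tap2 measured 7.83, 8.64, 10.0 and 10.5 CPM in SAH, 6.48, 7.94 and 6.80 CPM in Sham, and 7.41, 5.61 and 6.62 CPM in Naive mice. In both genes SAH mice 3 and 4 were highest, and SAH mouse 1 fell just under Sham mouse 6, so that the groups overlapped by this pair. The log2 fold change was 0.56 for Tap1 (SE 0.15, adjusted p = 0.0745 from edgeR) and 0.44 for Tap2 (SE 0.11, adjusted p = 0.0528 from edgeR). With the 3 mice richest in choroid plexus RNA left out neither was called, at 0.30 for Tap1 (edgeR adjusted p = 0.622) and 0.27 for Tap2 (edgeR adjusted p = 0.488). Tap1 missed the threshold without SAH mouse 3 (log2 fold change 0.46), SAH mouse 4 (0.50), Sham mouse 7 (0.54), Naive mouse 8 (0.50), Naive mouse 9 (0.52) or Naive mouse 10 (0.58), with edgeR adjusted p from 0.115 to 0.206. Tap2 missed it without SAH mouse 4 (0.37), Sham mouse 5 (0.42), Naive mouse 9 (0.39) or Naive mouse 10 (0.43), with edgeR adjusted p from 0.103 to 0.176. Of the 10 genes, 2 were then called without SAH mouse 4 and 3 without Naive mouse 9 or 10. Calls over all genes fell in the same fits, from 470 higher of 14993 tested with all mice. They were 223 of 15044 without SAH mouse 4, 320 of 14991 without Naive mouse 9 and 288 of 14996 without Naive mouse 10.

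Tapbp, the tapasin that bridges class I molecules to TAP, had the smallest adjusted p of the 10 genes. It measured 26.0, 25.2, 27.6 and 28.0 CPM in SAH mice 1 to 4, 23.03, 20.6 and 21.7 CPM in Sham mice, and 18.8, 21.8 and 21.1 CPM in Naive mice. The SAH mice stood apart from both control groups, on 537 to 700 read pairs each. Tapbp had a log2 fold change of 0.33 (SE 0.061, adjusted p = 0.0106 from edgeR), a 1.26-fold increase. Omitting any 1 mouse gave values from 0.30 to 0.36, all past the threshold. Tapbpl, the tapasin-related protein that edits peptides away from TAP, ranged from 6.25 to 6.91 CPM in SAH, 6.24 to 6.36 CPM in Sham and 5.52 to 5.91 CPM in Naive mice, with a log2 fold change of 0.11 (SE 0.083, edgeR adjusted p = 0.512). Its SAH and Sham mice overlapped.

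Psme1 and Psme2, which form the PA28 ring together, differed in how tightly the mice clustered. Psme1 measured 32.0, 32.4, 31.5 and 30.9 CPM in SAH mice 1 to 4, 29.6, 30.6 and 30.0 CPM in Sham mice and 27.7, 28.7 and 27.9 CPM in Naive mice. The 3 groups did not overlap and stood in the order SAH, Sham, Naive, but the log2 fold change was only 0.12 (SE 0.047) and did not pass the test (edgeR adjusted p = 0.198). Psme2 ranged from 13.2 to 16.7 CPM in SAH, 14.77 to 14.80 CPM in Sham and 13.1 to 15.2 CPM in Naive mice, with a log2 fold change of 0.076 (SE 0.074, edgeR adjusted p = 0.629). Its groups overlapped. Psme1 shares 4 bases of exon with Emc9 on the opposite strand, and the counting was strand-specific.

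Erap1, the aminopeptidase of the endoplasmic reticulum, ranged from 11.7 to 15.2 CPM in SAH and from 10.1 to 11.6 CPM in Naive mice, and averaged 12.2 CPM in Sham mice (SD 0.899, n = 3). SAH mouse 4 was highest, SAH mouse 3 lay below Sham mice 5 and 7, and the log2 fold change of 0.19 (SE 0.090) did not pass the test (edgeR adjusted p = 0.296).

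**Figure D2:**
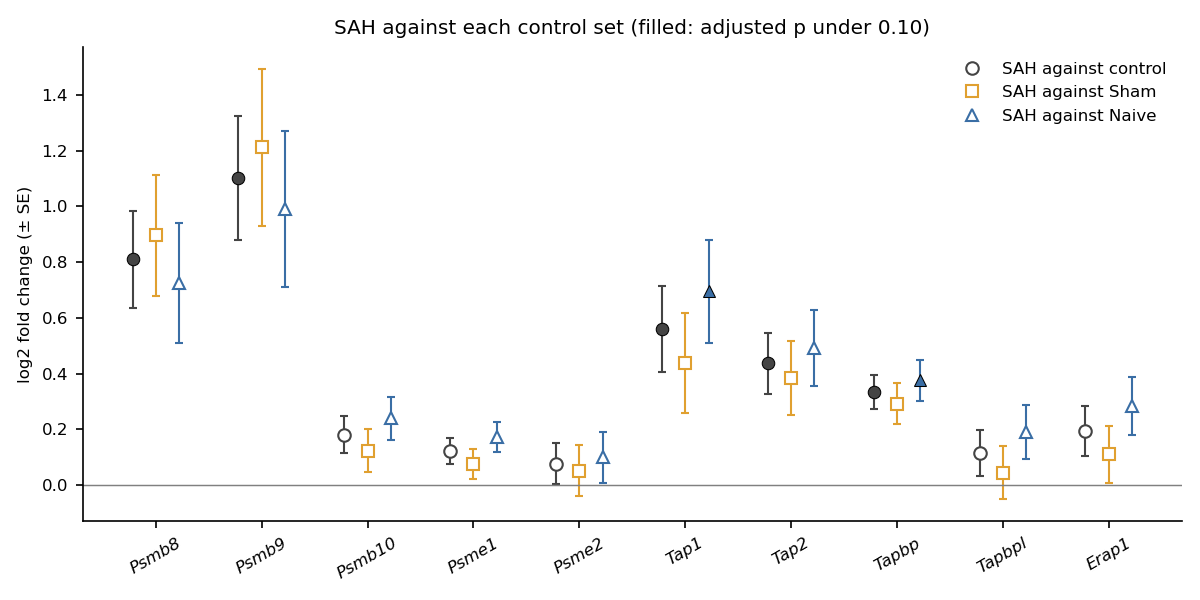
Log2 fold change (points) and its standard error (bars) for each gene in SAH against control, against Sham and against Naive, from edgeR. Filled points passed an adjusted p of 0.10: Psmb8, Psmb9, Tap1, Tap2 and Tapbp against control, and Tap1 and Tapbp against Naive, with none against Sham.

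The separate comparisons with Sham and with Naive mice, which share the SAH mice, ask whether the difference from control stands against surgery without puncture and against no surgery. Against Sham alone 0 of the 10 genes passed edgeR's adjusted p of 0.10, beside 0.529% of the 15134 genes tested. At an unadjusted p under 0.05 there were 5 of the 10, all higher (5.87% of genes tested), and DESeq2 called Psmb8, Psmb9 and Tapbp (1.42% of genes tested). The log2 fold changes against Sham were 1.21 for Psmb9 (SE 0.28, edgeR adjusted p = 0.107), 0.90 for Psmb8 (SE 0.22, edgeR adjusted p = 0.114) and 0.29 for Tapbp (SE 0.073, edgeR adjusted p = 0.141). Tap1 (0.44) and Tap2 (0.38) had edgeR adjusted p of 0.446 and 0.347, and the other 5 genes had log2 fold changes between 0.044 and 0.12. Every SAH mouse was above every Sham mouse for the same 5 genes as against control (5.0% of all genes tested). With a mouse left out, Psmb8 passed without SAH mouse 2 (log2 fold change 1.00, edgeR adjusted p = 0.0753) and Psmb9 without SAH mouse 3 (1.32, edgeR adjusted p = 0.0453).

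Against Naive alone Tap1 and Tapbp were overexpressed, 2 of the 10 genes beside 2.03% of all genes tested (0 lower, beside 0.965%), and DESeq2 called 4 of the 10, Psmb8 and Tap2 besides these (2.87%). The log2 fold change against Naive was 0.69 for Tap1 (SE 0.18, edgeR adjusted p = 0.0912) and 0.38 for Tapbp (SE 0.074, edgeR adjusted p = 0.0245). Psmb9 (0.99), Psmb8 (0.72) and Tap2 (0.49) had edgeR adjusted p of 0.114, 0.132 and 0.104. At an unadjusted p under 0.05 there were 8 of the 10 (7.78% of genes tested), and for 9 of the 10, all but Psme2, every SAH mouse was above every Naive mouse (6.98% of genes tested). Tap1 was called in 2 of the 10 fits with a mouse left out, those without SAH mouse 1 or 2, and its log2 fold change ranged from 0.60 to 0.83 over the 10. Tapbp was lost without Naive mouse 8 (0.32, edgeR adjusted p = 0.156), after which 0 of the 10 genes passed. Without SAH mouse 2 there were 4 genes called against Naive, and without SAH mouse 4, Naive mouse 9 or any of Sham mice 5 to 7 there was 1. Over all genes, 307 of 15134 were called higher with all mice, 443 of 15066 without SAH mouse 2 and 198 of 15044 without SAH mouse 4. The number was 87 of 15259 without Naive mouse 8, 108 of 15316 without Naive mouse 9 and 225 to 269 without a Sham mouse.

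Between the control groups 0 of the 10 genes passed in Sham against Naive by edgeR (0 at an unadjusted p under 0.05), beside 0.00661% of genes higher in Sham, and 0 by DESeq2, beside 0.0102%. Log2 fold changes ran from -0.22 for Psmb9 to 0.26 for Tap1. The Sham mean was above the Naive mean for 8 of the 10 genes, all but Psmb8 and Psmb9 (49.3% of all genes tested), so that the difference from SAH was larger against Naive for those 8 and larger against Sham for Psmb8 and Psmb9. Whether the difference from SAH itself differs between Sham and Naive is the Sham against Naive test.

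The balance between the inducible and the constitutive form of each catalytic subunit was measured within each library as the inducible subunit's share of the pair's counts per kb. Psmb8 made up 4.63%, 3.97%, 5.00% and 5.21% of the pair with Psmb5 in SAH mice 1 to 4, against 2.12%, 3.27% and 2.75% in Sham and 3.14%, 2.73% and 3.66% in Naive mice. The share was above that of every control mouse in all SAH mice. The mean log2 ratio of Psmb8 to Psmb5 was 0.71 higher in SAH (2-sided exact permutation test over 210 splits, p = 0.00952, the smallest they can give, adjusted p = 0.0254 over 8 ratios). Psmb9 made up 2.01%, 1.90%, 1.57% and 2.87% of the pair with Psmb6 in SAH, against 0.618% to 1.18% in Sham and 1.00% to 1.31% in Naive mice. These did not overlap either, and the log2 ratio was 1.04 higher (exact permutation p = 0.00952, adjusted p = 0.0254).

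Psmb10 made up 14.5% ± 0.727 (SD, n = 4) of the pair with Psmb7 in SAH and 13.4% ± 0.630 (SD, n = 6) in control. The ranges, 13.8% to 15.4% and 12.7% to 14.3%, overlapped, and the log2 ratio was 0.14 higher (exact permutation p = 0.0476, adjusted p = 0.0762). Omitting 1 mouse at a time, this ratio passed in 3 of 10 cases, those without SAH mouse 3, Sham mouse 5 or Naive mouse 10. In all mice the constitutive subunit held the larger share of each pair.

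**Figure D3:**
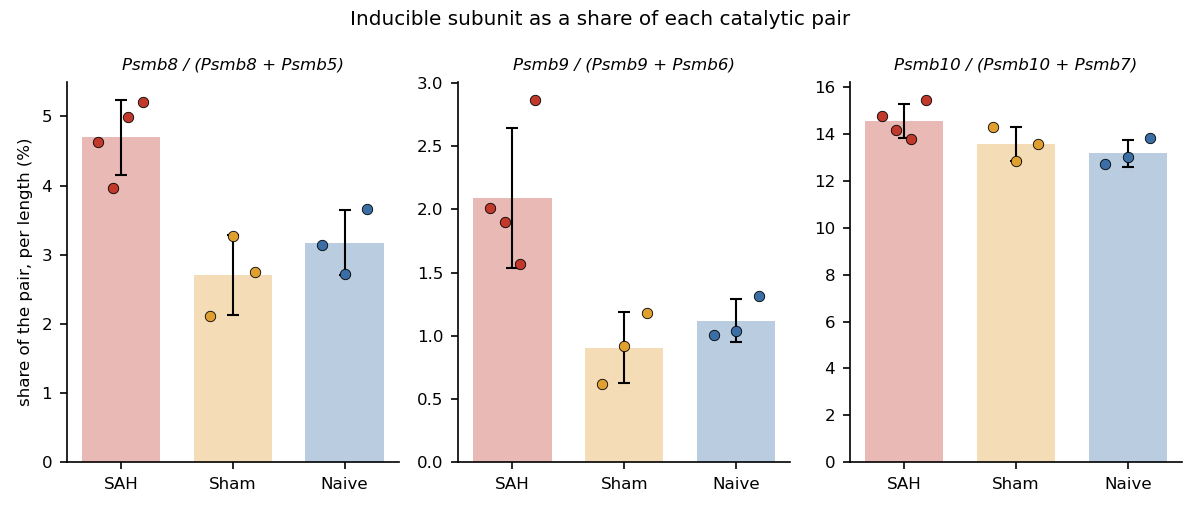
Counts per kb of the inducible catalytic subunit as a percent of the sum with its constitutive partner, in each mouse (points), with the group mean (bar, from 0) and SD (line) for SAH (n = 4), Sham (n = 3) and Naive (n = 3). Psmb8 lies between 3.97% and 5.21% in SAH and Psmb9 between 1.57% and 2.87%, above all control mice, while the shares of Psmb10 overlap.

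The other 5 ratios compared loading factors with a partner or relative. Psme1 to Psme3, the nuclear PA28 relative, was 0.18 higher on the log2 scale in SAH, with no overlap between the groups (exact permutation p = 0.00952, adjusted p = 0.0254). Psme3 itself stood at 113.3 CPM in SAH mice (SD 3.17, n = 4) and at 117.8 CPM in control mice (SD 2.42, n = 6). Tapbp to Tapbpl was 0.22 higher (exact permutation p = 0.0190, adjusted p = 0.0381), with SAH mouse 1 below Naive mouse 10. The log2 ratios of subunits that work in 1 complex differed by 0.12 for Tap1 to Tap2 (exact permutation p = 0.429, adjusted p = 0.566) and by 0.054 for Psme1 to Psme2 (exact permutation p = 0.495, adjusted p = 0.566). Erap1 to Lnpep, an endosomal aminopeptidase, differed by -0.019 (exact permutation p = 0.895, adjusted p = 0.895).

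No call was made among the other proteasome genes. Of 43 further genes, the 3 constitutive catalytic subunits, 11 other core subunits, 21 subunits of the 19S regulator and 8 activators, inhibitor and assembly factors, 0 passed edgeR's adjusted p of 0.10 in either direction, where 3.13% of all genes tested were higher and 1.54% lower, so that few calls would be found in a list of this size at those shares. Unadjusted p-values under 0.05 were found for 1 higher and 1 lower gene, against 1369 higher and 1180 lower of all 14993 genes tested, and DESeq2 called 0. Their log2 fold changes lay between -0.21 and 0.11, with a median of 0.047. Psmb5 had a log2 fold change of 0.11 (SE 0.058, edgeR adjusted p = 0.346), Psmb6 of 0.040 (SE 0.042, edgeR adjusted p = 0.660) and Psmb7 of 0.045 (SE 0.054, edgeR adjusted p = 0.701).

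The class I molecules that receive the peptides were also higher in SAH. Of 10 class I genes, heavy chains and the light chain B2m, 7 were tested and 6 were overexpressed (B2m, H2-K1, H2-D1, H2-Q4, H2-T23 and H2-T24), with a median log2 fold change of 0.90, against 3.13% of all genes tested called higher and a median of -0.0024. H2-T24 was not called without SAH mouse 1 or 4, Sham mouse 5 or 6, or Naive mouse 8 or 9, nor in the fit of 3 groups or with the 3 mice richest in choroid plexus RNA left out, while the other 5 were called in each of these. H2-Q4 rose most, from 1.44 to 2.43 CPM in control mice to 3.31 to 7.98 CPM in SAH mice, with a log2 fold change of 1.51 (SE 0.23, adjusted p = 0.00375 from edgeR). Heavy chain genes are near copies of each other, so the split of read pairs between them is uncertain. The study named class I genes among its changed genes from these same mice, so that the count is not independent evidence.

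Of 5 chaperones that fold class I molecules, Pdia3, the disulfide isomerase bound to tapasin, was called, with a log2 fold change of 0.22 (SE 0.065, adjusted p = 0.0976 from edgeR), where 3.13% of all genes were called higher. This call held in 2 of 10 fits with a mouse left out, those without SAH mouse 1 (3 of the 5 called) or SAH mouse 2 (4 called), and in the other 8 fits 0 of the 5 were called. Nor was any of the 5 called in the fit of 3 groups or with the 3 mice richest in choroid plexus RNA left out. Of 7 other peptidases that trim or destroy peptides, 0 were called by edgeR (unadjusted p under 0.05 in 2 that were higher and 1 that was lower, and DESeq2 called 1). Lnpep had a log2 fold change of 0.22 (SE 0.083, edgeR adjusted p = 0.199).

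Of 19 regulators of these genes, interferon receptors and Janus kinases included, 4 were overexpressed and 0 fell, against 3.13% of all genes called higher and 1.54% called lower. The study named Irf1, Irf7 and Irf8 among its changed genes from these same mice, so that this count is not independent evidence either. Irf7, a transcription factor of the interferon response, rose most, from 0.885 to 1.504 CPM in control mice to 3.27 to 8.11 CPM in SAH mice, with a log2 fold change of 2.10 (SE 0.24, adjusted p = 0.00084 from edgeR). The other 3 were named after their values were seen. Nlrc5, the transactivator of class I genes, had 8 to 19 read pairs per control mouse and 16 to 41 per SAH mouse and a log2 fold change of 1.04 (SE 0.28, adjusted p = 0.0718 from edgeR). Irf1 had a log2 fold change of 0.57 (SE 0.12, adjusted p = 0.0193 from edgeR) and Irf8, a factor of myeloid cells, of 0.49 (SE 0.13, adjusted p = 0.0627 from edgeR). Without SAH mouse 4, Sham mouse 5 or any of Naive mice 8 to 10 only Irf1 and Irf7 were called among the 19, and the same held with the 3 mice richest in choroid plexus RNA left out. Nlrc5 was also not called without Sham mouse 7 or with a minimum of 10 counts in every mouse.

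**Figure D4:**
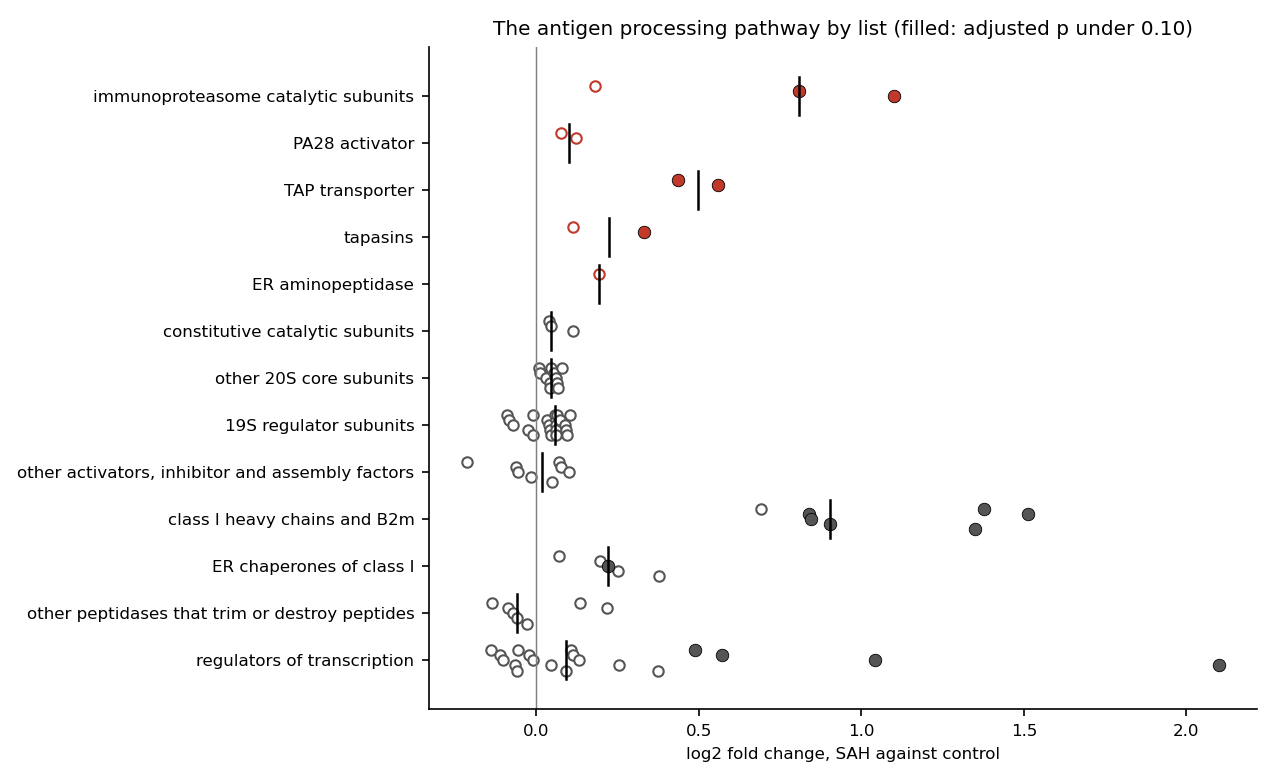
Log2 fold change in SAH against control of every tested gene (points) of the 5 groups of the 10 genes (red) and of 8 further lists (grey), with the median of each list as a vertical line and filled points past an adjusted p of 0.10. The 4 proteasome lists sit close to 0 with a median of 0.047 over 43 genes, while the class I list has a median of 0.90.

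The 4 neighbouring genes of chromosome 17 were all called in SAH against control, with log2 fold changes of 1.10 for Psmb9, 0.56 for Tap1, 0.81 for Psmb8 and 0.44 for Tap2. Psmb9 and Tap1, which start with 225 bases between them, differed in which SAH mouse was highest, mouse 4 for Psmb9 and mouse 3 for Tap1. Within 20 kb of the 10 genes lie 22 other genes, of which 16 were tested and 1 was called higher and 0 lower, near the shares of all genes (3.13% higher and 1.54% lower). The gene called was Cast, the calpain inhibitor calpastatin, named after its values were seen, which ends 1418 bases from the end of Erap1 on the opposite strand (log2 fold change 0.43, adjusted p = 0.0196 from edgeR). Around Tapbp, the neighbours Zbtb22 and Rgl2 had log2 fold changes of 0.14 and -0.076 (edgeR adjusted p = 0.267 and 0.750).

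**Figure D5:**
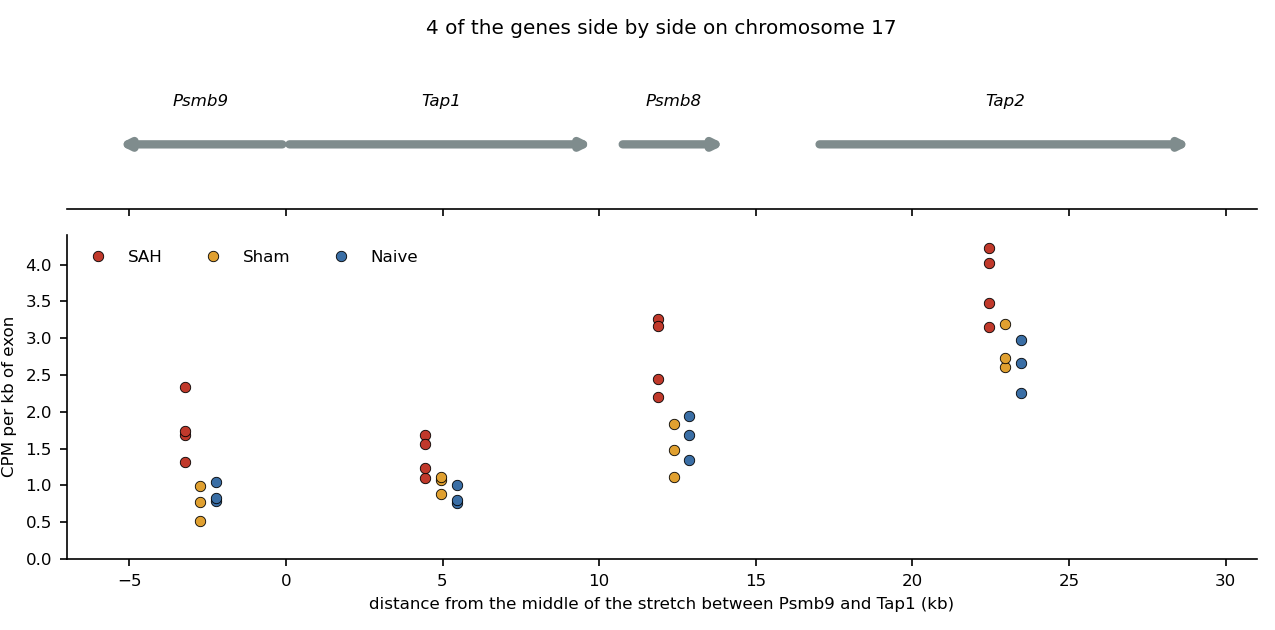
Top, the extent and direction of transcription of Psmb9, Tap1, Psmb8 and Tap2, in kb from the middle of the stretch between Psmb9 and Tap1. Bottom, CPM per kb of exon of each gene in each mouse, drawn at the middle of the gene with SAH, Sham and Naive set slightly apart; SAH points lie above all control points for Psmb9 and Psmb8 and overlap them for Tap1 and Tap2.

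The mean profile of the 10 genes (log2 CPM minus each gene's control mean) was 0.32, 0.32, 0.37 and 0.51 in SAH mice 1 to 4, between -0.037 and 0.078 in Sham and between -0.11 and 0.063 in Naive mice. The 10 other genes whose own profile lay nearest to it over the 10 mice were Kcns2, Dcdc2a, Serpinf1, Itgb5, Cald1, Msn, Agtrap, Dclre1c, Shc1 and Iqgap1, among them a potassium channel subunit (Kcns2), a secreted serpin (Serpinf1) and a linker of membrane and cytoskeleton (Msn). Their root mean square difference was 0.0673 to 0.0912 log2 units, against a median of 0.289 over the 14993 genes tested. Of the 10 genes themselves Tapbp lay nearest to the mean profile (0.0981) and Psmb9 furthest (0.473).

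Markers of other cells moved between the same groups, and their part in the results was not tested. The counts called are to be read against 3.13% of all genes called higher and 1.54% called lower. Border macrophage markers summed to 17.7 to 22.1 CPM in SAH, 9.66 to 11.3 CPM in Sham and 6.17 to 7.15 CPM in Naive mice, and 5 of the 6 were called higher. Microglial markers summed to 448.1 to 535.8 CPM in SAH, 432.6 to 465.4 CPM in Sham and 414.2 to 439.8 CPM in Naive mice, with 2 of 10 called higher. Among the SAH mice, mouse 4 had the highest microglial and endothelial sums, and mouse 1 the highest sums for border macrophages and for monocytes and neutrophils. Endothelial markers summed to 147.9 to 264.3 CPM in SAH and 136.4 to 182.2 CPM in control mice (3 of 7 called higher), with 2 of 5 called higher for pericytes and smooth muscle, 4 of 5 for fibroblasts, 1 of 6 for astrocytes and 1 of 6 for hippocampal neurons. All 6 oligodendrocyte markers were lower, and 0 of 6 general neuronal markers were called.

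T and NK cell markers summed to 0.368 to 1.12 CPM in SAH mice (8 to 28 read pairs over 10 genes) and 0.331 to 0.523 CPM in control mice, where Gzma and Cd2 were at 0 in all 6. None of these 10 genes had enough counts to be tested, nor did any of 4 B cell markers (Ms4a1 at 0 in all SAH mice). Monocyte and neutrophil markers summed to 1.92 to 3.68 CPM in SAH and 1.07 to 1.65 CPM in control mice, with 1 of 6 tested and 0 called by edgeR (0 at an unadjusted p under 0.05, 1 by DESeq2). Dendritic cell markers summed to 11.8 to 14.01 CPM in SAH and 11.4 to 13.2 CPM in control mice, with 0 of 3 tested called (Xcr1 at 0 in all SAH and all Naive mice, Clec9a in all Sham mice).

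Choroid plexus markers differed from mouse to mouse, from 101.1 to 1218 CPM in SAH, 56.7 to 822.3 CPM in Sham and 43.9 to 67.0 CPM in Naive mice, with 0 of 6 called by edgeR (2 higher at an unadjusted p under 0.05, 0 by DESeq2). They were highest in SAH mice 3 and 4 and in Sham mouse 7. SAH mice 3 and 4 were also the highest for Psmb8, Tap1, Tap2 and Tapbp. For these genes Sham mouse 7 was the lowest Sham mouse for Tap1 (2.61 CPM) and the middle one for Psmb8 (1.81 CPM), Tap2 (6.80 CPM) and Tapbp (21.7 CPM). It was the highest Sham mouse for Psmb9 (0.805 CPM), Psmb10 (22.1 CPM) and Psme2 (14.80 CPM), the middle one for Psme1 and Erap1, and the lowest for Tapbpl. With these 3 mice left out together, an alternative added after the data were seen that leaves 2 SAH and 5 control mice, 2 of the 10 genes were called (1.7% of genes tested). Psmb9 had a log2 fold change of 1.11 (edgeR adjusted p = 0.0609) and Tapbp of 0.28 (edgeR adjusted p = 0.0974). Psmb8, Tap1 and Tap2 were not called, with the values given above.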

How the data were processed

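The authors depleted total RNA of ribosomal RNA, sequenced strand-specific libraries in read pairs, aligned them to mm9 with STAR, and counted with featureCounts 1.6.2 (reverse-stranded, exons summed by gene name). The values that the authors deposited are raw counts of read pairs per gene. Only uniquely aligned pairs that fell on a single gene were counted. The 10 genes and all lists were chosen with earlier results of these data known.

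Counts were tested across all genes with edgeR 4.0.16 in R 4.3.3 (TMM normalization, filterByExpr with a minimum count of 10 and a total of 15, quasi-likelihood test, Benjamini-Hochberg adjustment over all genes tested, threshold 0.10), with SAH against pooled control as the main comparison and a fit of 3 groups for the others. The standard error is the log2 fold change divided by the square root of F. DESeq2 1.42.0 was an alternative. Both were tested on simulated data. Ratios were compared by exact permutation over mice with 0.5 counts added to each gene. Motifs were searched in RefSeq promoters, and Python 3.11.15 was used.

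Named genes were the 10 genes, their constitutive partners, in each further list the largest rise and the largest fall among genes called, and the 10 genes of nearest profile. The further lists were constitutive catalytic subunits, other core subunits, the regulatory cap, activators and assembly factors, class I heavy chains with B2m, chaperones, peptidases and regulators. The threshold and the pooling of control follow the study. Marker genes were written from general knowledge, and marker lists cover microglia, border macrophages, T and NK cells, monocytes and neutrophils, dendritic cells, B cells, endothelial cells, pericytes and smooth muscle, fibroblasts, astrocytes, oligodendrocytes, neurons, hippocampal neurons and choroid plexus. No 2 libraries of a group were alike enough to be duplicates.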

Additional observations from a re-analysis of the deposited data

Results flagged for a closer look

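Of 36 sets of values examined for a sample far from the others (the CPM of the 10 genes and the 8 log2 ratios, each in SAH and in control), 1 was flagged. Psme2 in Naive mouse 9 measured 13.06 CPM, below the other control mice, and its gap to the next divided by the range of the 6 control mice was 0.700, above the critical value of 0.625. Chance flags about 1 in 20 such sets.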

How the results depend on the processing

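Of the 10 genes, 5 were called in SAH against control under DESeq2, DESeq2's size factors in edgeR, library size alone, no filter, a minimum of 10 counts in all mice, a robust fit and the fit of 3 groups. An adjusted p under 0.05 left 3 (Psmb8, Psmb9 and Tapbp), and leaving out the 3 mice with the most choroid plexus RNA left 2 in a fit with fewer mice; the cause was not tested further. With single mice omitted the number called was 2 to 5 against control, 0 to 1 against Sham and 0 to 4 against Naive. Of all genes tested, these fits called 223 to 686 higher against control, 6 to 166 against Sham and 87 to 443 against Naive. Of the 10 genes, DESeq2 called 3 against Sham and 4 against Naive (1.42% and 2.87% of genes tested). On the SAH and Naive mice alone edgeR called 1 of the 10, beside 201 higher of 14954 genes tested. The log2 fold change of Psme2 in Sham against Naive turned to -0.0085 without Naive mouse 9 and ranged up to 0.096.

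Among the further lists, 5 to 7 class I genes were called higher with single mice omitted. Called higher were 2 chaperones under DESeq2, 0 at an adjusted p under 0.05 and 0 to 4 with single mice omitted. Of the other peptidases 1 was called under DESeq2 and 1 with library size alone, and 0 to 1 with single mice omitted. Of the regulators 2 were called at an adjusted p under 0.05 and 2 to 5 with single mice omitted. Over all genes tested, 3.94% were called higher under DESeq2, 1.85% at an adjusted p under 0.05 and 488 of 14993 with library size alone. With single mice omitted 223 to 686 genes were called higher.

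With Sham alone as control, exact permutation cannot give a p below 0.0571, and the same holds for Naive alone. The differences in log2 ratio were then 0.83 and 0.59 for Psmb8 to Psmb5, 1.21 and 0.87 for Psmb9 to Psmb6, 0.12 and 0.16 for Psmb10 to Psmb7, 0.12 and 0.24 for Psme1 to Psme3, and 0.25 and 0.19 for Tapbp to Tapbpl, none past the threshold after adjustment. Erap1 to Lnpep was -0.18 against Sham alone, turned to 0.14 against Naive alone and ranged from -0.088 to 0.062 with single mice omitted, Psme1 to Psme2 ranged from -0.013 to 0.096, and Psmb10 to Psmb7 from 0.11 to 0.17.

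No paired analysis was possible because the groups share no replicate numbers. Among the 10 genes depth limits Psmb9 most, with 10 to 47 read pairs per mouse.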
